A study of Mus musculus with 22 samples.

Results

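Ursodeoxycholic acid (UDCA) feeding was compared with plain chow in the livers of wild-type mice. All arrays whose labels give the wild-type genotype were used, 5 from mice on chow (WT_chow) and 6 from mice on chow with 0.1% UDCA (WT_UDCA), so that 11 of the 22 arrays of the study entered the comparison. All mice were female, on the C57BL/6J background and 12 weeks old, and UDCA was given for 7 weeks from the age of 5 weeks. Each array measured total RNA of 1 liver on an Affymetrix MoGene 2.0 ST chip, in which a row of probes reports 1 transcript. The other 11 arrays came from Cyp2c70 knockout mice on the same diets (KO_chow, 5, and KO_UDCA, 6). They serve here to set the wild-type response beside the knockout response and, in a fit of all 22 arrays, to give an alternative estimate of the spread. The labels give no detail of the knockout allele or of the cells that lack it. The wild-type pair and the knockout pair share no array.

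Bile acids are made from cholesterol in hepatocytes. The classic pathway starts with Cyp7a1, the rate-limiting 7-alpha-hydroxylase, and Cyp8b1 then directs it to cholic acid. The nuclear receptor FXR (Nr1h4) senses bile acids in the hepatocyte. It is known to induce the repressor Nr0b2 and the exporters Abcb11, Slc51a and Slc51b, and to lower Cyp7a1. Mouse liver converts chenodeoxycholic acid and UDCA to hydrophilic muricholic acids through Cyp2c70. UDCA is a hydrophilic bile acid that is used to treat cholestatic liver disease.

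The 11 arrays were alike in overall signal. Median intensities ranged from 28.8 to 31.1, and correlations between arrays of the same diet (0.9832 to 0.9898) overlapped those between diets (0.9821 to 0.9883). The first 3 principal components carried 14.3%, 12% and 11.8% of the variance, and none of them separated the diets fully. WT_UDCA replicate 4 (-29.5) and WT_chow replicate 5 (23.1) held the ends of the first component, each with a lowest correlation of 0.9821. WT_UDCA replicate 4 also gave the most extreme UDCA-fed value of some genes below, such as Elovl3 (3.51) and Akr1c18 (7.63). On the third component all 6 UDCA-fed mice had scores above 0 and 4 of the 5 chow-fed mice scores below 0, with WT_chow replicate 2 among the UDCA-fed mice. All 12 measured hepatocyte markers lay above the array median in every array. The Cyp2c70 row itself read 11.22 to 11.62 on the log2 scale in the wild types and 10.27 to 10.83 in the knockouts, with no overlap between genotypes. The sources used here do not say whether its probes lie in the deleted part. The sample numbers in the labels form 2 runs, 1 to 15 and 16 to 22, each with both diets. The labels do not say what the runs are, and values within each run are given for some of the genes.

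UDCA changed 1 gene of 24011 in wild-type liver. Ptgds, which encodes the lipocalin-type enzyme that makes prostaglandin D2, fell 1.79-fold. On the log2 scale its levels on chow were 6.31, 6.08, 6.28, 6.57 and 6.16. On UDCA the lowest was 5.14, the median 5.48 and the highest 5.65. Every UDCA-fed mouse thus lay below every chow-fed mouse. The log2 difference was -0.84 ± 0.11 (SE, 95% interval -1.07 to -0.61), with an adjusted p of 0.042 by limma with Benjamini-Hochberg adjustment over all genes. A single call amounted to 0.00416% of the genes tested, and the next smallest adjusted p was 0.417.

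The Ptgds call was close to its threshold. With a variance shared by all 22 arrays the same difference had an adjusted p of 0.461, and with the run of sample numbers as a term it was 0.0949. Within the first run Ptgds differed by -0.77 and within the second by -0.95, neither past the threshold (adjusted p 0.406 and 0.936). When 1 mouse at a time was left out the difference ranged from -0.89 to -0.77, in the same direction in all 11 fits, and it kept the call in 1 of them, the fit without WT_UDCA replicate 4 (adjusted p 0.024). Ptgds was low in every UDCA-fed mouse, and in bulk liver fewer cells that express it and less RNA per cell cannot be told apart.

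**Figure D1:**
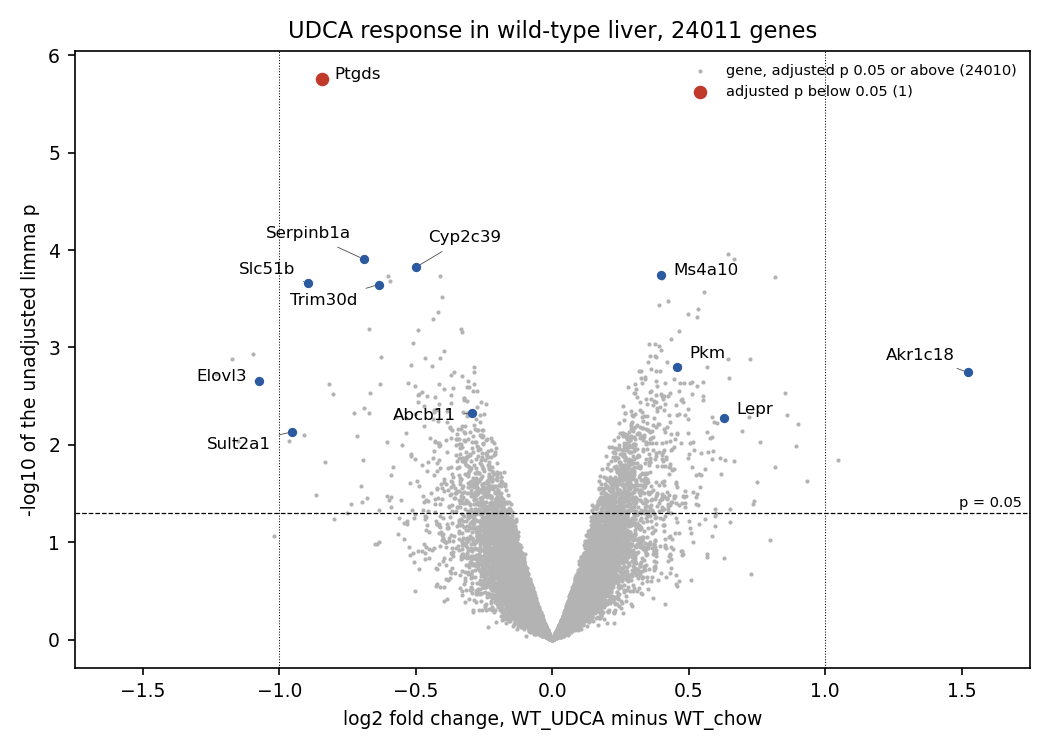
Each point is 1 of 24011 genes, with the log2 fold change of UDCA-fed minus chow-fed wild types on the horizontal axis and -log10 of the unadjusted limma p on the vertical axis. Ptgds (red) is the only gene with an adjusted p below 0.05; blue points are genes described in the text, dotted vertical lines mark a 2-fold change and the dashed line an unadjusted p of 0.05.

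The spread of all genes set narrow bounds on the difference in array signal of most genes. These are bounds on signal for each gene taken alone, and not on RNA amount. Of the 24011 genes, 12199 were at or above the array median in at least 5 of 11 arrays. An unadjusted p below 0.05 was reached by 853 genes that were higher on UDCA (3.55%) and by 614 that were lower (2.56%), together 6.11% of the genes. The 95% interval of a gene's difference had a median half-width of 0.24 on the log2 scale. This interval lay entirely within a 2-fold change for 23840 genes (99.3%), and within a 1.5-fold change for 22240 (92.6%). A fitted change of at least 2-fold was seen in 8 genes, 7 of them with an unadjusted p below 0.05, and of at least 1.5-fold in 84. The plot of fold change against p shows this narrow cloud, with most genes between the dotted lines.

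Among the genes next in order of p, those that were lower on UDCA included Serpinb1a, Cyp2c39 and Slc51b. Serpinb1a encodes an inhibitor of neutrophil proteases. It read 6.38, 6.31, 6.68, 6.94 and 6.50 on chow, and 5.47, 5.92 and 6.11 (lowest, median and highest) on UDCA. The groups did not overlap and the log2 difference was -0.69 ± 0.13 (SE, adjusted p 0.417), which did not pass. Groups that did not overlap were found for 76 genes higher on UDCA (0.317% of all genes) and 80 lower (0.333%).

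Cyp2c39 belongs to the same cytochrome P450 subfamily as Cyp2c70 and hydroxylates retinoids and fatty acids. Its levels on chow were 7.44, 7.31, 7.09, 7.32 and 7.59, and on UDCA they ran from 6.75 through a median of 6.80 to 7.05. Here too all UDCA-fed mice were below all chow-fed mice. The difference was -0.50 ± 0.10 (SE, adjusted p 0.417).

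Slc51b encodes the beta subunit of the basolateral bile acid exporter OST. It gave the largest fold among the transporters, synthesis enzymes and receptors of bile acids. On chow it read 4.71, 4.79, 4.22, 4.66 and 4.66, and on UDCA 3.13, 3.59 and 4.30 (lowest, median and highest). Only WT_chow replicate 3 lay inside the range of the UDCA-fed mice. The difference was -0.90 ± 0.18 (SE, 95% interval -1.28 to -0.51, 1.86-fold), with an adjusted p of 0.417. Its signal was dim, at or above the array median in 0 of 11 arrays. Within the first run of sample numbers the difference was -1.14 and within the second -0.66.

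**Figure D2:**
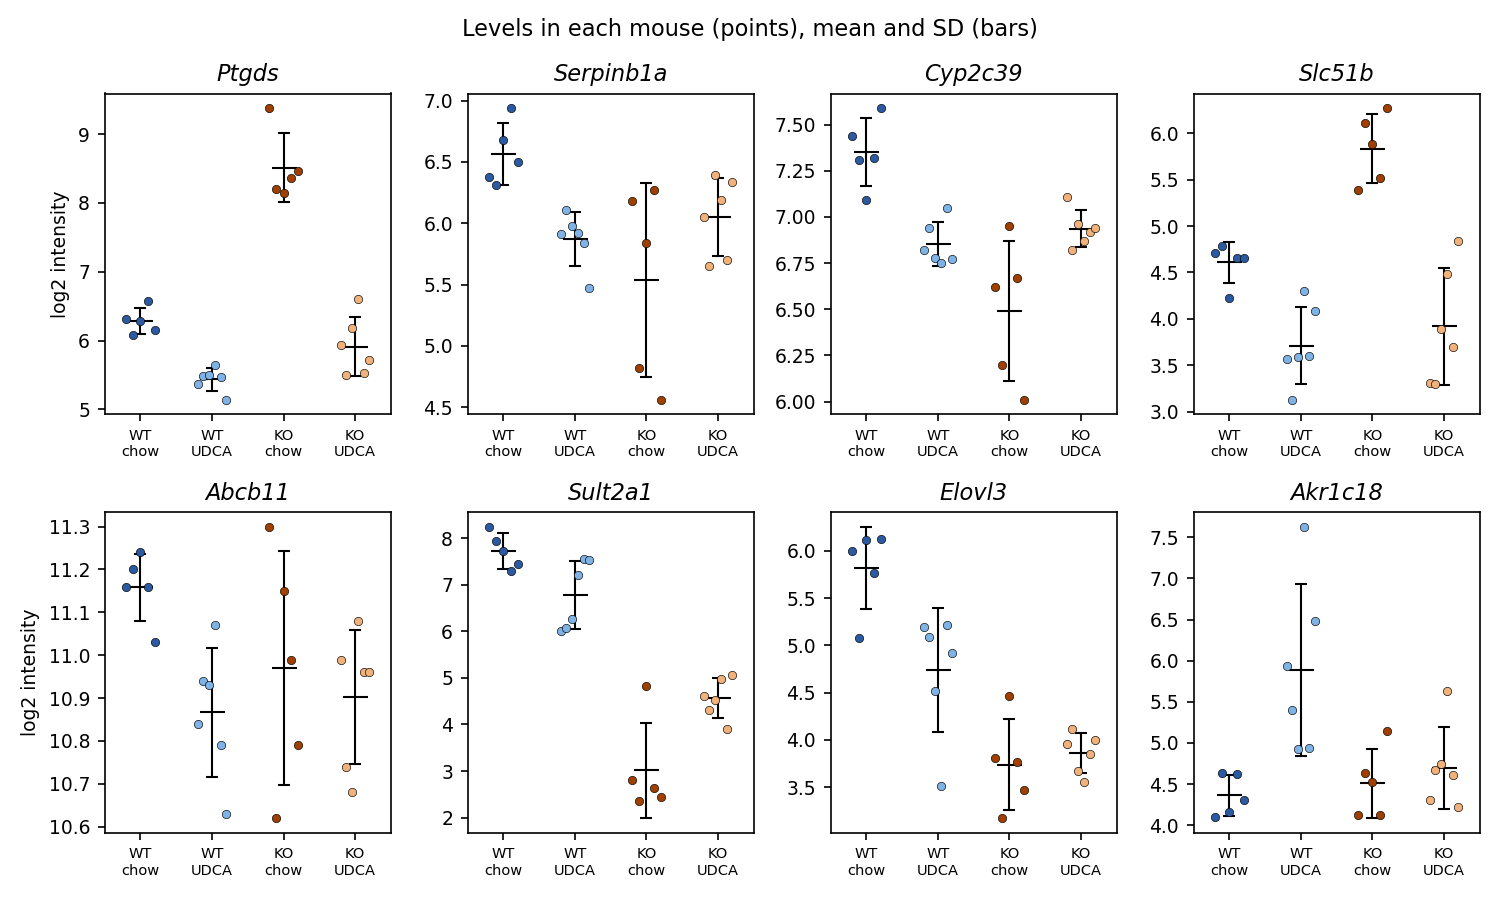
Log2 intensity of 8 genes in every mouse (points), with the mean and SD of each group (bars), for the 4 groups wild type on chow, wild type on UDCA, knockout on chow and knockout on UDCA. In the wild types Ptgds, Serpinb1a and Cyp2c39 do not overlap between diets, and neither does Akr1c18; in the knockouts Ptgds and Slc51b start higher on chow (means 8.51 and 5.83) than in the wild types (6.28 and 4.61).

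The promoter sequences of Ptgds, the gene that was called, and of Slc51b and Abcb11, the export genes with the smallest p, are shown because FXR and related receptors bind copies of the hexamer AGGTCA. The windows run from 250 bases before to 50 bases after the start of the gene and come from RefSeq on the GRCm38.p6 build. All 3 genes lie on the minus strand, at chr2:25469700-25469999 for Ptgds, chr9:65422724-65423023 for Slc51b and chr2:69342567-69342866 for Abcb11. Capitals mark the matches described after the sequences.
Ptgds: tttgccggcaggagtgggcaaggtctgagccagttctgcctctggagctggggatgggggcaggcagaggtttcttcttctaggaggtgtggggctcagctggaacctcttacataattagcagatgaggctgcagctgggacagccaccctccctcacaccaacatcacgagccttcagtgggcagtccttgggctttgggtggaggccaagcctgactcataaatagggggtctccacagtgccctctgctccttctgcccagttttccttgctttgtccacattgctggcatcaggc
Slc51b: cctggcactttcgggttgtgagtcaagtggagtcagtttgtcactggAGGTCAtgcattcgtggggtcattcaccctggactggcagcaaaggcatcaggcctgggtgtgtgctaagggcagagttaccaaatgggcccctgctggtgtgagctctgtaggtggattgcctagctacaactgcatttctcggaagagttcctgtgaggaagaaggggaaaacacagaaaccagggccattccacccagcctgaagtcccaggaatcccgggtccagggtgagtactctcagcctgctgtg
Abcb11: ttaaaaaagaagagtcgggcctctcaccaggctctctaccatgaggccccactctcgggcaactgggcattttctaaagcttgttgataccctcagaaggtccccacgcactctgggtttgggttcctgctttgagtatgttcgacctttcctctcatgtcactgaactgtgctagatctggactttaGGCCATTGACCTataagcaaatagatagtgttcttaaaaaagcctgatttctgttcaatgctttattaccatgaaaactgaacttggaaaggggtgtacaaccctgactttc

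Both strands of these windows were searched for AGGTCA and for a relaxed inverted repeat of it, GGNCANTGNCC. The Slc51b window held 1 hexamer, 203 to 198 bases before the start. The Abcb11 window held 1 hexamer on the other strand, 56 to 51 bases before the start, and a relaxed inverted repeat, GGCCATTGACC, 62 to 52 bases before it, which overlaps the hexamer. Neither motif was found in the Ptgds window. Windows of some other genes were searched too. Those of Abcb4, Nr0b2, Cyp8b1 and Slc10a2 held neither motif. The hexamer was in those of Slc51a and Akr1c18 and in 1 of 2 for Cyp2c39. Of 32851 windows of this length, 16.3% held the hexamer and 222 (0.676%) the relaxed inverted repeat, and the full form AGGTCANTGACCT was in 3. A match is a run of letters and was not tested as a binding site.

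No gene of bile acid synthesis passed the test. All 10 measured genes of the classic pathway had a fitted difference below 0, from -0.25 to -0.04 with a median of -0.08. Over all genes 11150 of 24011 were below 0 and the median was 0.01. An unadjusted p below 0.05 was reached by 1 of the 10, Cyp27a1, the mitochondrial sterol 27-hydroxylase. It read 10.82, 10.70, 10.83, 10.68 and 10.68 on chow, and 10.16, 10.53 and 10.79 (lowest, median and highest) on UDCA. The groups overlapped, and the difference was -0.25 ± 0.10 (SE, adjusted p 0.788).

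Cyp7a1 read 10.26, 10.80, 10.69, 11.00 and 10.46 on chow, and 9.72, 10.50 and 10.79 on UDCA as lowest, median and highest. Only WT_UDCA replicate 3 lay below all chow-fed mice. Its difference was -0.23 ± 0.17 (SE, adjusted p 0.883), and the 95% interval, -0.61 to 0.14, reached to a fall of just over 1.5-fold and to a small rise. Cyp8b1 differed by -0.15 ± 0.14 (SE, interval -0.45 to 0.14, adjusted p 0.901). The 5 measured genes of the alternative pathway ran from -0.15 (Cyp46a1) to 0.07, with none at an unadjusted p below 0.05. Cyp7b1, the oxysterol 7-alpha-hydroxylase of that pathway, differed by -0.04.

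Conjugation and 6-hydroxylation followed the same narrow range. Baat, which joins bile acids to taurine or glycine, was the only 1 of 6 genes with an unadjusted p below 0.05, at -0.18 ± 0.08 (SE, adjusted p 0.806). Cyp2c70 differed by -0.05 (95% interval -0.25 to 0.15), and its sign turned within the second run of sample numbers (0.07). Cyp3a11, a cytochrome P450 that hydroxylates bile acids and drugs, differed by -0.13. All 6 intervals of this list lay within a 1.5-fold change.

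Of the 7 uptake transporters measured, 3 were lower at an unadjusted p below 0.05, beside 2.56% of all genes, and none was higher. They were Slc10a2, the sodium-dependent transporter of ileum and bile duct cells (-0.50), and the organic anion transporters Slco1a4 (-0.32) and Slco1b2 (-0.17). Slc10a2 read 5.01, 5.43, 5.25, 5.11 and 4.85 on chow, and 4.22, 4.68 and 4.92 (lowest, median and highest) on UDCA. Only the lowest chow-fed mouse lay within the UDCA range, and the adjusted p was 0.652. Slc10a1, the main sodium-dependent uptake carrier of hepatocytes, differed by -0.03 (95% interval -0.20 to 0.15).

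The exporters held 3 of 10 members that were lower at an unadjusted p below 0.05 (Slc51b, Abcb11 and Abcb1a), beside 2.56% of all genes. The median of the list was -0.14, and 9 of its 10 intervals lay within a 2-fold change, all but that of Slc51b. Abcb11 is the canalicular bile salt export pump. Its levels were 11.16, 11.20, 11.24, 11.16 and 11.03 on chow, and 10.63, 10.89 and 11.07 (lowest, median and highest) on UDCA. The chow-fed mice clustered tightly, and 1 of them lay within the UDCA range. The difference was -0.29 ± 0.09 (SE, adjusted p 0.676), close to the -0.30 and -0.27 seen within the first and the second run. Abcb1a, a drug efflux pump, differed by -0.37, whereas Abcc2, Abcc3 and Abcc4 lay between -0.07 and 0.01.

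Among 16 hepatic FXR target genes, 3 were lower at an unadjusted p below 0.05, beside 2.56% of all genes, and none was higher. The median of the list was -0.06. The 3 were Slc51b, Abcb11 and Abcb4, the phospholipid floppase of the canaliculus. Abcb4 differed by -0.21 ± 0.09 (SE, adjusted p 0.806). Slc51a, the partner of Slc51b, differed by -0.20 (95% interval -0.45 to 0.04). Nr0b2, the repressor that FXR induces, varied widely between mice of a diet, from 6.52 to 7.58 on chow and from 6.09 to 7.74 on UDCA. Its difference of -0.16 therefore had a wide interval, -0.71 to 0.39. Fetub, Fgf21, Apoc2 and Sdc1 had differences above 0, none larger than 0.07.

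The receptors showed little difference. Nr1h4 itself differed by -0.08 (95% interval -0.28 to 0.12). Gpbar1, the membrane bile acid receptor TGR5, was the only 1 of 14 receptors and partners with an unadjusted p below 0.05, at -0.29 ± 0.12 (SE, adjusted p 0.806). The other nuclear receptors Nr1i2, Nr1i3, Nr1h3 and Vdr ran from -0.07 to 0.25. The plot of bile acid genes shows that most intervals include 0 and that the members lie more often to its left.

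**Figure D3:**
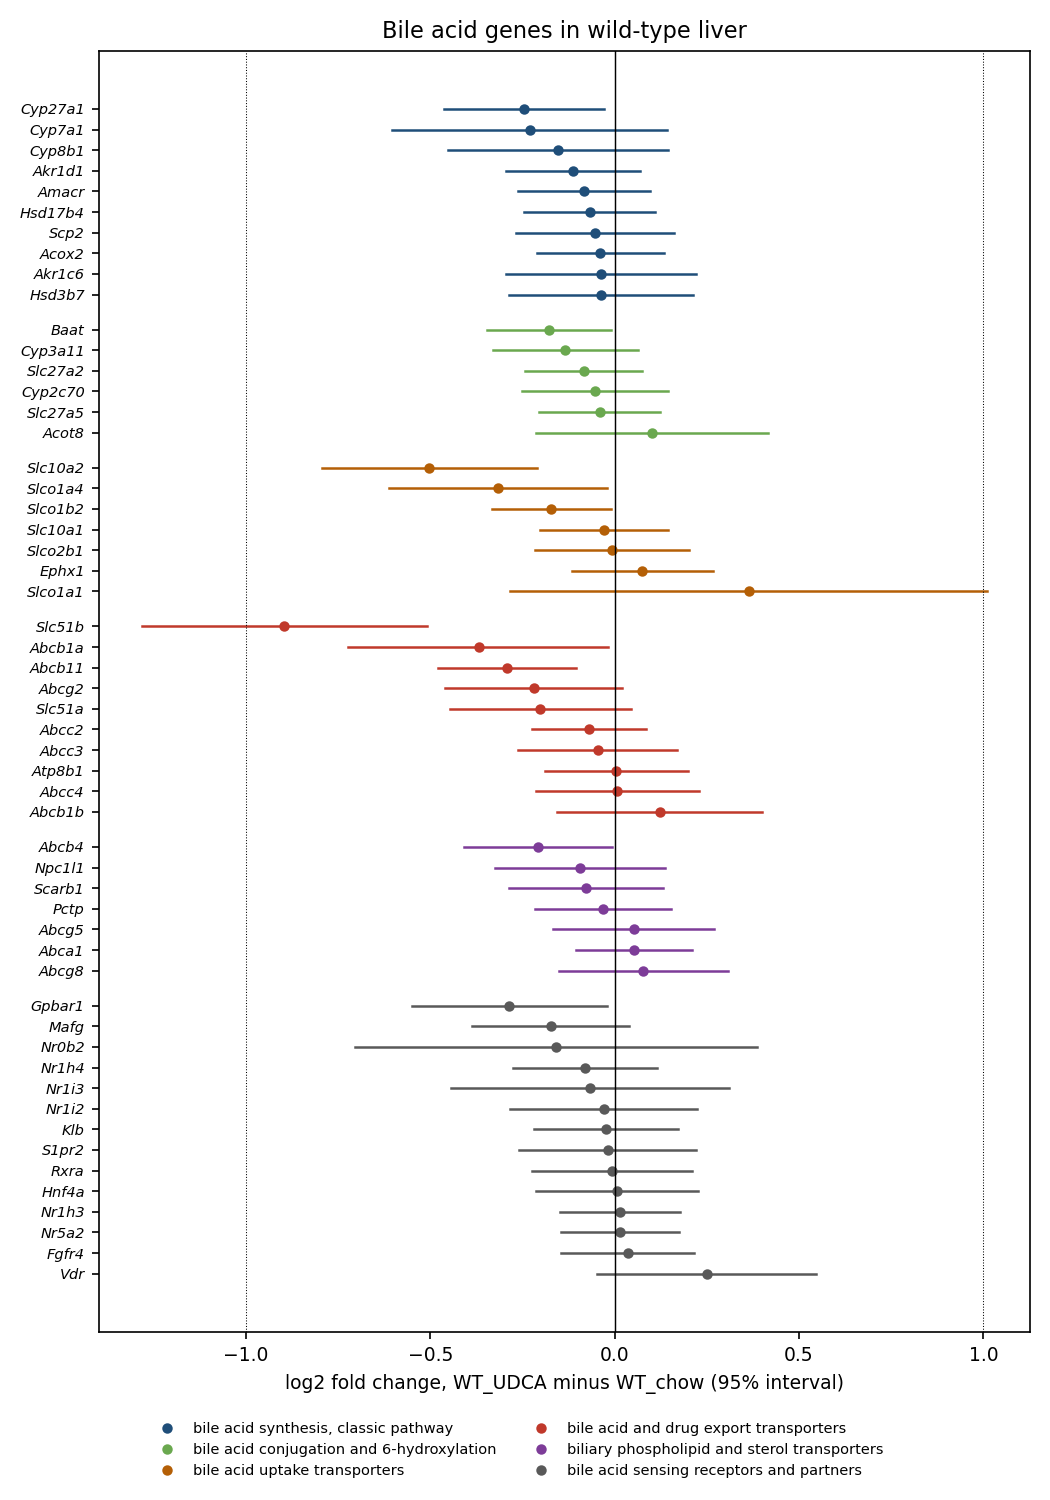
Log2 fold change of UDCA-fed minus chow-fed wild types (points) with the 95% interval (bars) for the measured genes of 6 bile acid lists, coloured by list; dotted lines mark a 2-fold change in each direction. Slc51b is the only gene whose point lies near the dotted line on the left, and all 10 genes of the classic synthesis pathway lie left of 0 with intervals that, apart from that of Cyp27a1, include it.

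No gene of the drug metabolism lists passed the test. Of the 14 Cyp2c genes other than Cyp2c70, 4 were lower at an unadjusted p below 0.05 and none was higher, with a median of -0.13. In 2 of them, Cyp2c39 and Cyp2c38 (-0.23), the diets did not overlap. Of all genes 2.56% were lower at that p, and 0.333% were lower without overlap. Whether the rows of these related genes share signal was not tested. Among 20 targets of the drug receptors CAR and PXR, 12 had a difference below 0 and 8 above, and 2 were lower at that p, Cyp3a25 (-0.39) and Cyp2c50 (-0.26). Cyp2b10, the classic CAR target, read 6.88, 7.02, 6.91, 7.66 and 6.88 on chow, and 6.59, 7.49 and 8.43 (lowest, median and highest) on UDCA. It spread more widely on UDCA, and its difference of 0.43 ± 0.27 (SE, adjusted p 0.847) did not pass. The 7 AHR targets measured lay between -0.07 and 0.00.

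Phase II conjugation enzymes were among the lists with the lowest medians. Of 16 sulfotransferases and partners, 4 were lower at an unadjusted p below 0.05 (Sult2a1, Sult1d1, Sult1b1 and Papss2), none was higher, and the median was -0.14. Of 13 UDP-glucuronosyltransferases, 3 were lower at that p (Ugt3a1, Ugt2b36 and Ugt2b35), beside 2.56% of all genes, with a median of -0.14. The median of this list was -0.04 in the first run of sample numbers and -0.26 in the second. Ugt3a1, at -0.41 ± 0.12 (SE, adjusted p 0.663), did not overlap between diets. Of 15 genes of the NRF2 and glutathione list, 1 was higher at an unadjusted p below 0.05, Gstm1 (0.23), beside 3.55% of all genes. None was lower. Differences were above 0 in 5 of them and below 0 in 10, with a median of -0.02.

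Sult2a1, which sulfates bile acids and steroids, differed between the runs of sample numbers. In the first run it read 8.25, 7.94 and 7.72 on chow and 6.01, 6.08 and 6.26 on UDCA. The second run gave 7.29 and 7.44 on chow and 7.21, 7.55 and 7.53 on UDCA. UDCA-fed mice were thus low in the first run only, where it was -1.85 with an adjusted p of 0.0375, while the second gave 0.07 (adjusted p 0.979). Over all 11 arrays it was -0.95 ± 0.30 (SE, adjusted p 0.693). Some of its close paralogs, whose rows may share signal, were also lower in the first run only. Sult2a2 differed by -1.24 in the first run and 0.29 in the second, Sult2a4 by -0.52 and 0.33, and Sult2a5 by -0.87 and 0.32. Others followed less or not at all, with Sult2a3 at -0.34 and -0.04 and Sult2a6 at -0.01 and 0.145. The median of the 16 members was -0.28 in the first run and 0.05 in the second, so the median over both runs rests on the first. What differs between the runs was not tested.

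A handful of genes showed larger fitted changes with wide spread. Akr1c18, which inactivates progesterone, had the largest, and is named after its values were seen. It read 4.10, 4.63, 4.16, 4.62 and 4.31 on chow, and 4.93, 5.67 and 7.63 (lowest, median and highest) on UDCA. All UDCA-fed mice lay above all chow-fed mice, but they ranged over far more than the chow group. Its signal was at or above the array median in all 6 UDCA arrays and in 0 of the 5 chow arrays. The difference was 1.52 ± 0.40 (SE, 95% interval 0.68 to 2.37, adjusted p 0.652). It was 1.13 in the first run and 1.89 in the second, and between 1.18 and 1.71 with any 1 mouse left out. In the knockouts Akr1c18 differed by 0.19 (adjusted p 0.815), and the test of the difference between genotypes gave an adjusted p of 0.165.

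Elovl3, a fatty acid elongase, was lower on UDCA. Its levels were 6.00, 5.08, 6.12, 5.77 and 6.13 on chow, and 3.51, 5.01 and 5.22 (lowest, median and highest) on UDCA. WT_chow replicate 2 was the only chow-fed mouse inside the UDCA range, and the difference was -1.07 ± 0.29 (SE, adjusted p 0.652). The other 6 genes past 2-fold were Gm8127, Olfr820, Scgb2b20, Ssxb10 and Mup-ps12, which were lower, and an immunoglobulin heavy chain segment, which was higher, all singled out after their values were seen. Olfr820 passed the test without WT_UDCA replicate 4 (-1.46, adjusted p 0.00488), the mouse that read 3.33 while the other UDCA-fed mice read 1.15 to 2.04. Its row was dim, at or above the array median in 0 of 11 arrays, so the size of this difference is uncertain. The rows of Gm8127, Scgb2b20, Ssxb10 and the immunoglobulin segment were likewise at or above the median in 0 of 11 arrays.

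No gene of the lipid lists passed the test. Of 23 lipogenesis genes only Elovl3 had an unadjusted p below 0.05, and 18 intervals lay within a 1.5-fold change. Lpin1, a phosphatidate phosphatase, had the highest difference of the list, 0.60 (adjusted p 0.832), with 0.85 in the first run and 0.15 in the second. Srebf1, the transcription factor that drives the pathway, differed by 0.20 (95% interval -0.04 to 0.45). All 20 cholesterol synthesis genes had intervals within a 1.5-fold change, with a median of 0.01. Of 30 genes of fatty acid oxidation and PPAR-alpha, 20 had a difference below 0. At an unadjusted p below 0.05, 1 of them was lower, the fatty acid transporter Cd36 (-0.28), a share near the 2.56% of all genes. The highest member was Cyp4a31, a fatty acid hydroxylase (0.50, adjusted p 0.827). Of 16 apolipoprotein genes, 1 was higher at that p, beside 3.55% of all genes. It was Apoa4, which is known to rise with dietary fat. Apoa4 read 9.83, 9.39, 9.97, 9.75 and 9.37 on chow, and 9.80, 10.15 and 10.27 (lowest, median and highest) on UDCA. The groups overlapped, and its difference of 0.41 ± 0.13 (SE, adjusted p 0.693) did not pass. It was 0.19 in the first run and 0.67 in the second.

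Lepr, the leptin receptor, was the single member of the growth hormone, leptin and insulin list with an unadjusted p below 0.05. It read 6.68, 7.40, 7.49, 7.59 and 7.94 on chow, and 7.74, 8.05 and 8.48 (lowest, median and highest) on UDCA. Only the highest chow-fed mouse reached the UDCA range, and the difference was 0.63 ± 0.19 (SE, adjusted p 0.68), with 0.85 in the first run and 0.29 in the second. Among sex-biased genes, Atp6v0d2 and Sult2a1 of the 17 female-biased members were lower and Cyp2a4 (0.34) was higher at that p. Of the 16 male-biased members, Gstp1 (0.36) was higher and Elovl3 lower. Of all genes 3.55% were higher and 2.56% lower at that p. The medians of both lists were near 0, at -0.04 for female-biased and -0.03 for male-biased genes. The female-biased median was -0.14 in the first run and 0.14 in the second.

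The 15 genes that were higher on UDCA and had the smallest p were mostly dim. In 10 of them the signal was at or above the array median in 0 of 11 arrays. The 3 that lay above the median in every array were Gstp1, a glutathione transferase, Pkm, a pyruvate kinase of glycolysis, and Nck2, an adaptor protein. Pkm read 5.54, 5.92, 5.18, 5.46 and 5.55 on chow, and 5.78, 5.99 and 6.19 (lowest, median and highest) on UDCA. WT_chow replicate 2 overlapped the UDCA range, and the difference was 0.46 ± 0.12 (SE, adjusted p 0.652). Ms4a10 had the smallest p of the 15, with 0.40 ± 0.08 (SE, adjusted p 0.417).

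No gene of the fibrosis, bile duct and inflammation lists passed the test. Of 27 fibrosis and matrix genes, 1 was higher at an unadjusted p below 0.05 (Ccn2, a matricellular growth factor, 0.37) and none was lower. The share of higher members was near the 3.55% of all genes. All 27 intervals lay within a 2-fold change. Of the 27 differences 20 were above 0, with a median of 0.05, beside 12861 of 24011 genes above 0. Col1a1, a chain of type I collagen, read 6.20, 6.44, 6.20, 6.22 and 6.42 on chow, and 6.01, 6.38 and 6.70 (lowest, median and highest) on UDCA. All chow-fed mice lay within the range of the UDCA-fed mice, and the difference was 0.07 (95% interval -0.18 to 0.32). Its sign turned within the first run (-0.07).

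Of 15 cholangiocyte markers none had an unadjusted p below 0.05, and the mean level of the list ran from 4.93 to 5.08 on chow and from 4.94 to 5.08 on UDCA. Krt7 and Krt19, keratins of bile duct cells, differed by 0.02 and 0.01, and the sign of Krt19 turned with quantile normalization and with centring. Of 12 markers of monocyte-derived macrophages 1 was lower at an unadjusted p below 0.05, the integrin Itgam (-0.20), beside 2.56% of all genes. List levels were 5.20 to 5.40 on chow and 5.22 to 5.43 on UDCA. Among 21 chemokines and cytokines, Ccl5 (0.35) and Cxcl9 (0.53) were higher at that p, beside 3.55% of all genes. Both attract T cells. In both, WT_UDCA replicate 6 was the highest mouse (6.51 and 9.05), and the diets overlapped. The 15 T and NK cell markers had mean levels of 4.69 to 4.96 on chow and 4.77 to 5.13 on UDCA. The part of these cells in the Ccl5 and Cxcl9 differences was not tested. Neutrophil markers were at 3.91 to 3.98 on chow and 3.89 to 4.32 on UDCA, and 10 of the 12 lay below the array median in every array. In 11 of these 12 markers, and in 11 of 13 antigen presentation genes, the difference was above 0, with medians of 0.11 and 0.12, beside 12861 of 24011 genes above 0. Tap1, a peptide transporter of antigen presentation, was the only member of these lists with an unadjusted p below 0.05 (0.20).

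Other cell types also overlapped between the diets. The level of 12 Kupffer cell markers was 7.55 to 7.69 on chow and 7.36 to 7.89 on UDCA, and that of 13 sinusoidal endothelial markers 7.94 to 8.25 and 7.66 to 8.29. Of 14 stellate cell markers, Vipr1 (0.20) and Hand2 (0.20) were higher and the growth factor Hgf (-0.16) was lower at an unadjusted p below 0.05. Of all genes 3.55% were higher and 2.56% lower at that p. The diets did not overlap for Vipr1 or Hgf, beside 0.317% of all genes higher and 0.333% lower without overlap. The 9 pancreas markers, which can reveal stray tissue, were at 4.19 to 4.35 on chow and 4.29 to 4.45 on UDCA. Cpb1 and Cela1 were higher at an unadjusted p below 0.05. Of the 9 markers 6, Cpb1 among them, lay below the array median in every array. Stray tissue was not tested. In no marker list did the mean level separate the diets.

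No gene of the stress and growth lists passed the test. Of 21 genes of the unfolded protein and integrated stress responses, 16 had a difference above 0, with a median of 0.13, the highest of the lists apart from the pancreas markers. None of the 21 had an unadjusted p below 0.05, and Atf5, a transcription factor of that response, came closest (0.23, adjusted p 0.823). At that p, 1 of 21 cell cycle genes was higher (Cdk1, 0.29) and 1 of 21 acute phase genes lower (Orm3, -0.63), shares near those of all genes. Differences were above 0 in 13 of the cell cycle genes and in 12 of the acute phase genes, beside 12861 of 24011 genes. The 19 interferon response genes and the 8 p53 targets had none at an unadjusted p below 0.05.

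**Figure D4:**
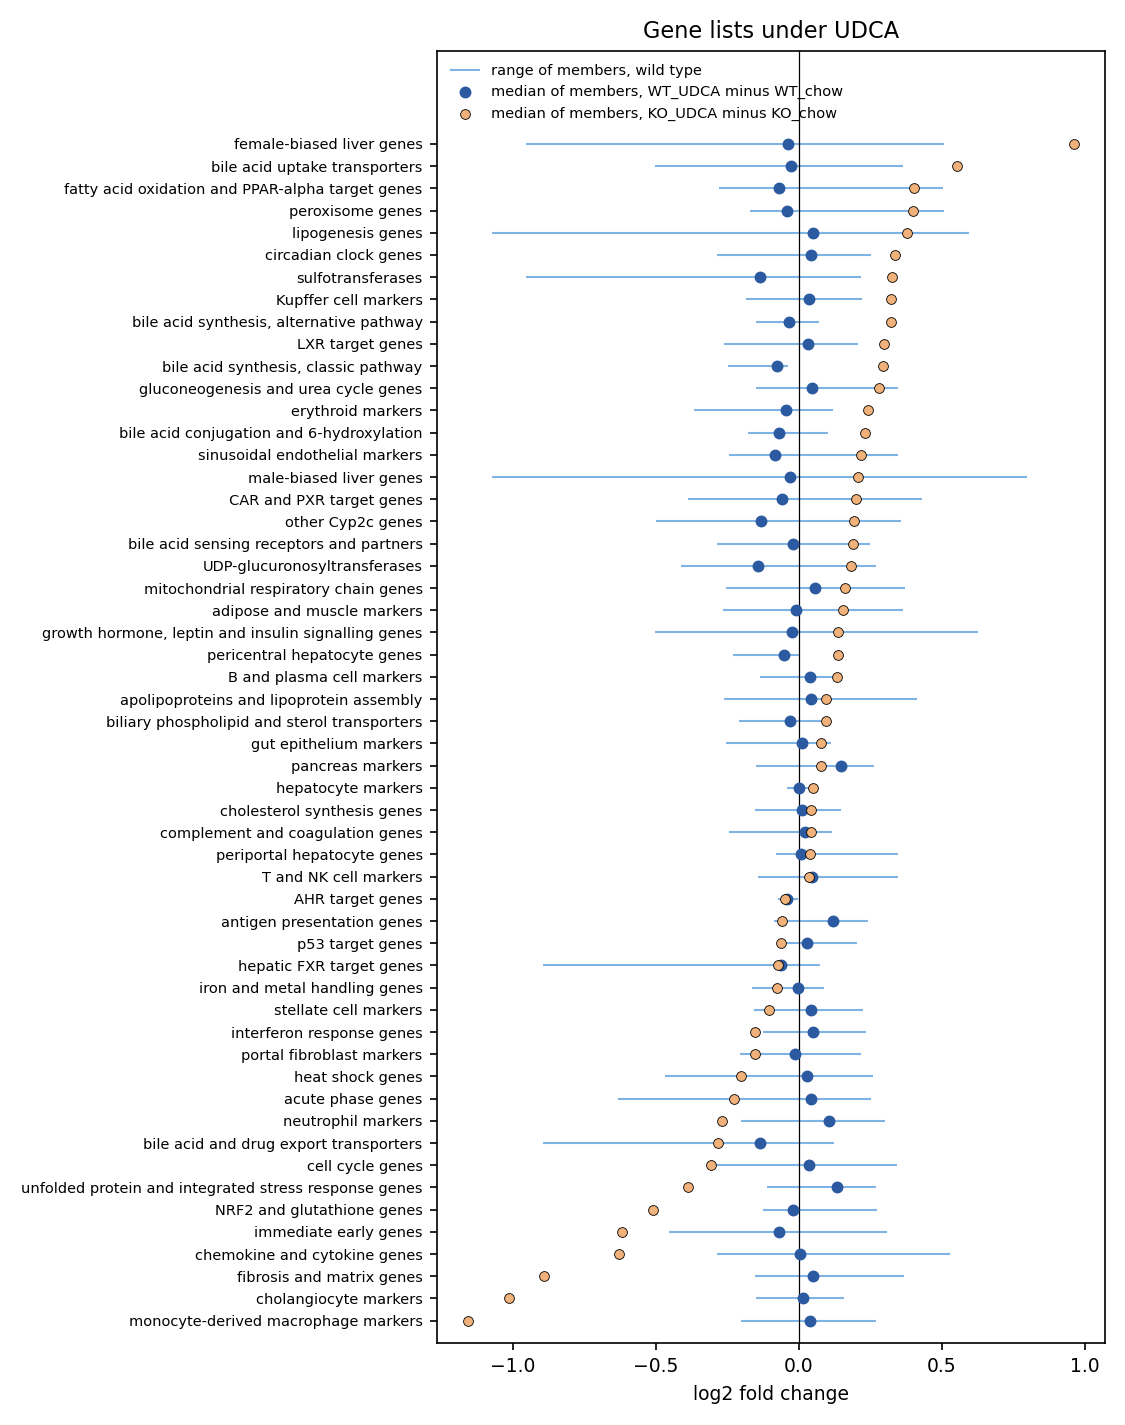
Median log2 fold change of the measured members of each gene list in the wild types (blue points) and in the knockouts (orange points), with the range of the members in the wild types (blue lines). The wild-type medians lie between -0.14 and 0.15, whereas the knockout medians run from -1.16 for markers of monocyte-derived macrophages to 0.96 for female-biased liver genes.

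The same diet had a broad response in the knockouts. There 1208 genes rose (5.03%) and 1493 fell (6.22%) at an adjusted p below 0.05, in a fit of all 22 arrays. The response differed between genotypes for 642 genes (2.67%) by the interaction term of that fit, and in 626 of these the knockout change was the larger in size. The number of these genes ranged from 301 (without KO_chow replicate 2) to 1219 (without KO_chow replicate 4) when 1 array was left out. It was 394, 415, 404 and 427 without WT_chow replicates 1, 3, 4 and 5, 1028 and 370 without KO_chow replicates 1 and 5, and 425 and 405 without KO_UDCA replicates 3 and 6. The number changed in the knockouts fell to 1632 without KO_chow replicate 5 and to 1652 without KO_chow replicate 2.

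Genes that answered in the knockouts had medians near 0 in the wild types. The 1493 genes that fell in the knockouts had a median of -0.53 there and of -0.01 in the wild types. Their 95% intervals in the wild types lay within a 2-fold change for 1489. At an unadjusted p below 0.05, 4.09% of them were lower in the wild types and 2.75% higher, beside 2.56% and 3.55% of all genes. The 1208 genes that rose in the knockouts had a median of 0.43 there and of 0.02 in the wild types, where 3.48% were higher and 2.40% lower at that p. For the 201 genes that fell at least 2-fold in the knockouts, the wild-type median was -0.01, and 198 of their wild-type intervals lay within a 2-fold change. At an unadjusted p below 0.05, 5.97% of these 201 genes were lower in the wild types and 0.995% higher. The share of lower genes was thus above the 2.56% of all genes.

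**Figure D5:**
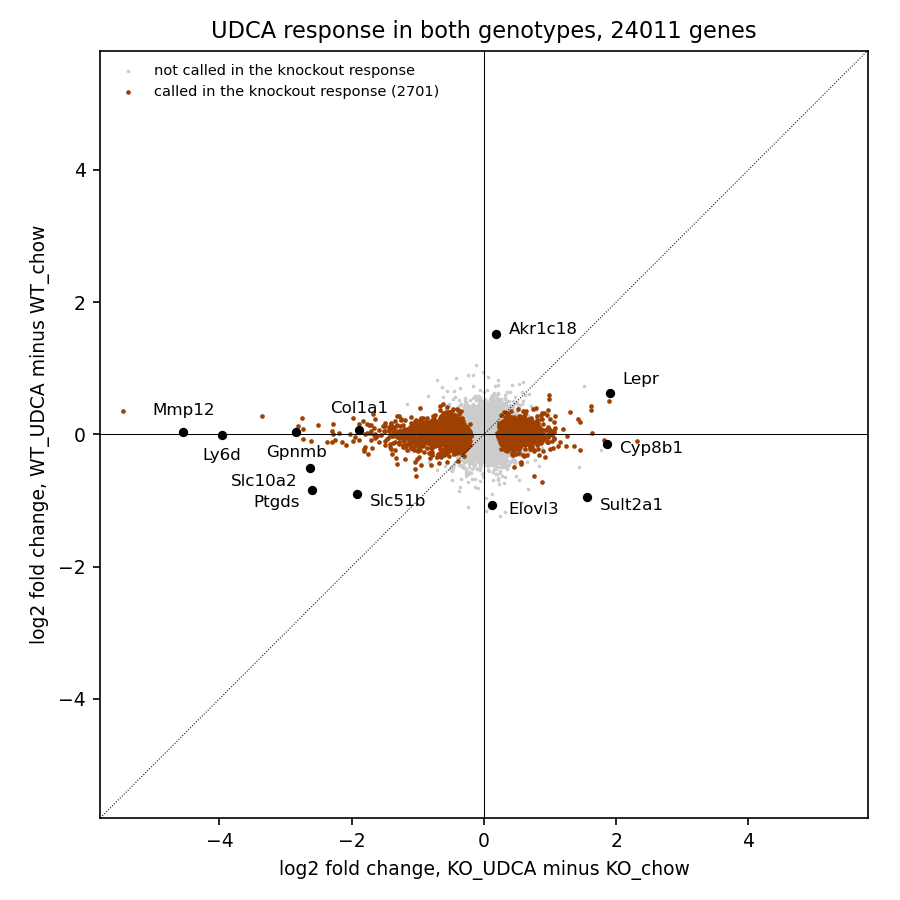
Log2 fold change on UDCA in the knockouts (horizontal axis) against that in the wild types (vertical axis) for 24011 genes, with the 2701 genes that changed in the knockouts in brown and genes described in the text in black. The dotted diagonal marks equal responses; the brown points spread along the horizontal line at 0, and Ptgds, Slc51b and Slc10a2 have values below 0 in both genotypes.

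Genes with the smallest p of the interaction included markers of macrophages and of matrix. Mmp12, a macrophage elastase, was between 4.53 and 5.42 in the wild types on either diet, whereas in the knockouts it was between 8.46 and 11.01 on chow and between 5.10 and 5.73 on UDCA. It fell by 4.54 in the knockouts and differed by 0.03 in the wild types (95% interval -0.33 to 0.40). The integrin Itgax and the lysosomal glycoprotein gene Gpnmb gave wild-type differences of 0.16 and 0.04, against falls of 1.77 and 2.84 in the knockouts. Col1a1 and Col6a3 fell by 1.88 and 1.41 in the knockouts. Their wild-type differences were 0.07 and 0.18, and the adjusted p of the interaction was 6.99e-05 for Col1a1 and 3.02e-05 for Col6a3. In the lists, 25 of 27 fibrosis genes, 11 of 15 cholangiocyte markers and 11 of 12 macrophage markers fell in the knockouts. Of all genes 6.22% fell there. The response differed between genotypes for 20, 9 and 9 of these members, beside 2.67% of all genes. The lists were chosen with earlier results of these data known.

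Ptgds fell in both genotypes, and further in the knockouts. There it read 9.38, 8.21, 8.14, 8.37 and 8.46 on chow, and 5.50, 5.82 and 6.61 (lowest, median and highest) on UDCA. The knockouts on chow lay above every wild type, and the knockouts on UDCA overlapped the wild types on chow. The knockout change was -2.60 ± 0.19 (SE), and the responses differed by 1.76 ± 0.28 (SE, adjusted p 0.00104). Slc51b fell by 1.92 in the knockouts, and its response was not shown to differ from the wild-type one (1.02 ± 0.35, SE, adjusted p 0.121). Slc10a2 fell by 2.63 in the knockouts, further than in the wild types (adjusted p of the difference 9.11e-05).

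Of the synthesis enzymes, Cyp8b1 rose by 1.85 in the knockouts, from a mean of 6.85 ± 0.83 (SD, n = 5) to 8.70 ± 0.37 (SD, n = 6). In the wild types it was 9.66 ± 0.18 (SD, n = 5) on chow and 9.51 ± 0.30 (SD, n = 6) on UDCA, and the responses differed by -2.01 (adjusted p 0.00388). Cyp7a1 rose by 1.45 in the knockouts, and its response differed by -1.68 ± 0.57 (SE, adjusted p 0.118), which did not pass. Slc10a1 rose by 0.55 in the knockouts against -0.03 in the wild types (adjusted p of the difference 0.0199).

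Some genes had fitted changes in opposite directions. Cyp2c39 rose by 0.45 in the knockouts and differed by -0.50 in the wild types (adjusted p of the difference 0.00495). Sult2a1 rose by 1.56 in the knockouts, where it read 2.35 to 4.82 on chow and 3.90 to 5.07 on UDCA, against -0.95 in the wild types (0.0112). This wild-type value rests on the first run of sample numbers (-1.85), as the second gave 0.07. Pkm, Gstp1 and Apoa4 fell in the knockouts, by 0.62, 0.34 and 0.56, and were higher in the wild types by 0.46, 0.36 and 0.41, with adjusted p of the differences of 0.00858, 0.0135 and 0.0234. In each of these 5 genes the wild-type change alone did not pass the test. Lepr was higher on UDCA in both genotypes and rose by 1.91 in the knockouts, more than in the wild types (adjusted p of the difference 0.0419).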

How the data were processed

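Per the labels, the authors deposited RMA intensity values, summarised with a probe-level model and unlogged; RMA is listed without version in the submitters' processing notes, and the annotation's build was not given in the sources used here. Of 24973 rows, 24015 had 1 gene symbol in the platform annotation and 958 had none; 4 symbols on several rows were represented by their brightest row, which left 24011 genes. Values were taken to log2 with no pseudocount or filter and no further scaling. The 11 wild-type arrays were fitted with limma 3.58.1 (lmFit and eBayes, R 4.3.3), two-sided, with Benjamini-Hochberg adjustment over all genes and a threshold of 0.05; knockout and interaction contrasts came from a fit of all 22 arrays. The fit was tested on simulated data.

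Genes were described by list (54 lists of 751 genes, 48 without a row), without set tests. Named were the 15 genes per direction with the smallest p, leaving out predicted genes and receptor or antibody families, each list's member of smallest p, 15 bile acid and marker genes chosen by name, and the 10 genes with the smallest interaction p. Other list members named, and list values by run of sample numbers, were chosen after their values were seen. Members and lists were chosen with earlier results of these data known. Replicates are mice numbered in the order of their records, and the numbers pair nothing. The number of arrays limits the precision.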

Additional observations from a re-analysis of the deposited data

Results flagged for a closer look

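In 9 of 216 group values tested, 1 mouse stood apart from the others of its group by Dixon's criterion, which chance meets in about 1 in 20 groups. On the log2 scale these were Cntn6 at 2.48 in WT_UDCA replicate 6, Cyp2b10 at 7.66 and Nck2 at 5.10 in WT_chow replicate 4, Cyp7a1 at 9.72 in WT_UDCA replicate 3, Plin1 at 4.58 in WT_chow replicate 5, Slc51b at 4.22 in WT_chow replicate 3, Trim30d at 5.93 in WT_UDCA replicate 5, an immunoglobulin heavy chain segment at 4.86 in WT_UDCA replicate 6 and Mup-ps12 at 1.64 in WT_UDCA replicate 4.

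The response to UDCA differed between wild types and knockouts, by limma's interaction term, for 32 of the 108 genes named or past 2-fold. Given as the wild-type minus the knockout change in log2, it was above 0 for Mmp12 (4.58), Ly6d (3.95), Gpnmb (2.87), Tspan8 (2.68), Slc10a2 (2.12), Ier3 (1.99), Col1a1 (1.95), Itgax (1.92), Plet1 (1.85), Ptgds (1.76), Col6a3 (1.59), Cdh1 (1.48), Ubd (1.36), Ccdc80 (1.25), Pkm (1.08), Ccn2 (1.04), Apoa4 (0.97), Cdk1 (0.77), Gstp1 (0.70), Krt19 (0.69), Vill (0.63), H2al1n (0.53) and Pdia2 (0.50). It was below 0 for Sult2a1 (-2.51), Cyp8b1 (-2.01), Lepr (-1.28), Cyp2c39 (-0.95), Sugct (-0.76), Ccdc138 (-0.75), Glipr1l1 (-0.59), Slc10a1 (-0.58) and Vipr1 (-0.46). Of all genes 2.67% differed by that term. The 32 include the 10 genes with the smallest interaction p, which the rule of naming brought in for that same p. These are Mmp12, Ly6d, Gpnmb, Tspan8, Col1a1, Itgax, Plet1, Col6a3, Ubd and Ccdc80. Their passing is therefore no separate result, and the count of 32 cannot be set against the share of all genes.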

How the results depend on the processing

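The wild-type comparison called 1 gene, Ptgds, also with a filter on dim genes, renewed quantile normalization, median centring, a pseudocount of 16 (difference -0.66), a trended robust variance and array weights, at adjusted p from 0.00692 to 0.0476. It called 0 genes in the fit of all 22 arrays (1338 at an unadjusted p below 0.05), 0 with the run of sample numbers as a block (1467) and 0 in the second run alone (1227); the first run alone called 1, Sult2a1 and not Ptgds. Leaving out 1 array gave 0 to 2 calls, 2 (Ptgds and Olfr820) without WT_UDCA replicate 4 and 0 in each other fit. The 642 genes that differed between genotypes became 499 to 861 under the other settings and 301 to 1219 with 1 array left out. The 2701 genes changed in the knockouts, whose alternatives were added after the data were seen, became 2047 to 3162 and, with 1 array left out, 1632 to 3201. Of 2233 values of single genes under these alternatives, 2174 kept direction and call, 14 (all Ptgds) lost the call, 2 gained it and 43, in 17 genes, turned sign. Outside leave-one-out the turned values were, in the second run alone, Ccdc80 -0.032, Cyp2c70 0.066, Gpnmb -0.003, Lgals4 0.012, Ly6d 0.073, Sctr -0.025, Slc10a1 0.016 and Sult2a1 0.066. In the first run alone they were Col1a1 -0.071, Col6a3 -0.008, Cyp46a1 0.035, Cyp7b1 0.038, Krt19 -0.116, Krt7 -0.024, Mmp12 -0.395, Mzb1 -0.027 and Tspan8 0.092. Krt19 was also at -0.004 with quantile normalization, -0.003 with centring and -0.012 with array weights. With 1 array left out, Ccdc80 ranged from -0.01 to 0.086, Cyp7b1 from -0.116 to 0.012, Gpnmb from -0.026 to 0.147, Krt19 from -0.044 to 0.089, Krt7 from -0.027 to 0.067, Ly6d from -0.122 to 0.049 and Mmp12 from -0.053 to 0.168. The filter on dim genes left 35 of the 108 genes without a value. No paired analysis was possible because the labels give no replicate numbers shared between groups.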
